A study of Homo sapiens with 10 samples.

Results

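Interferon-induced genes were examined as a group of 36 named genes, the products of which restrict viruses or relay the interferon signal. A gene was measured where the platform annotation gave a probe set to that symbol alone, with the brightest probe set taken if several existed. Of the 36 genes, 34 were measured, each by 1 probe set, among 14232 genes with such a probe set and 21980 probe sets in all. USP18, which removes ISG15 from proteins, shared its probe set with another symbol, and STAT2, a subunit of the interferon-activated transcription factor complex, had no probe set of its own name; neither was analysed here. The samples were U2OS cells, a human osteosarcoma line, grown for 30 h after seeding at 25% density in medium with 10% serum. They then received, for 4 h, either DMSO as solvent control or PD0332991 (palbociclib), which blocks CDK4 and CDK6, the kinases driven by D-type cyclins. Each treatment had 5 biological replicates on Affymetrix exon arrays, and the array names in the labels split them into set 1 (replicates 1 to 3 of both treatments) and set 2 (replicates 4 and 5 of both). A concentration of 1 mM is labelled; the unit is doubtful for a compound usually applied at micromolar levels, and the arrays cannot settle it.

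Cells that sense viral nucleic acid secrete type I interferons, which bind a receptor on the same and on neighbouring cells and activate the kinases JAK1 and TYK2. A complex that holds IRF9 then binds the interferon-stimulated response element, a DNA motif in the promoters of the induced genes. Interferon gamma acts through a different receptor and another DNA motif, the gamma-activated site, and raises IRF1. Without interferon most of these genes are expressed at a low level in many cell types. The comparison of treatments asks whether transcripts of these genes differed within hours of CDK4 and CDK6 inhibition.

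The arrays had similar medians (6.95 to 7.06, log2) but unequal spread, with interquartile ranges from 3.18 on DMSO replicate 1 to 3.68 on PD0332991 replicate 3. DMSO replicate 1 was the highest of the 5 DMSO arrays for 17 of the 34 genes, against 39.7% of all probe sets, and PD0332991 replicate 3 was the lowest of the treated arrays for 17 of the 34, against 38.0%. The labelled cell type was checked with 10 mesenchymal markers, all measured, of which VIM, COL1A1, SPARC, CDH2 and FN1 had DMSO means between 11.11 and 12.02. The others on that list lay between 6.23 (TWIST1) and 9.41 (COL6A3), with COL1A2 at 6.53 and RUNX2 at 7.69. Of 4 mature osteoblast markers listed, 3 were measured, with DMSO means of 4.28 (IBSP), 6.24 (ALPL) and 7.81 (SPP1). The 4 measured epithelial markers lay between 5.55 (CDH1) and 7.07 (CLDN4), so the epithelial and mesenchymal values overlapped. Leukocyte markers, which could carry an interferon signature of their own, lay between 3.83 (LYZ) and 6.75 (CD14) over the 6 measured of 10. PTPRC, which encodes the pan-leukocyte antigen CD45, was at 3.90 in DMSO and 3.89 after treatment. In these bulk samples fewer cells expressing a gene and less RNA per cell cannot be told apart.

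Most of the interferon-induced genes were dim. The mean over the 10 arrays lay under the median of all probe sets (7.0, log2) for 23 of 34 genes and under the lower quartile (5.24) for 11. Probe sets differ in how brightly they report the same amount of RNA and the values are not scaled to transcript length, so these positions describe brightness and give no ranking of transcript levels. The 11 dimmest included CXCL10, a chemokine that draws T cells, with a DMSO mean of 3.79 ± 0.23 (SD, n = 5), and EPSTI1 at 4.14 ± 0.36. RSAD2, the antiviral enzyme viperin, stood at 4.71 ± 0.26 and the RNA sensor IFIH1 (MDA5) at 4.95 ± 0.14. The others under the lower quartile were DDX60, IFIT2, OAS2, MX2, HERC5, BST2 and IFI44L. Without detection calls it could not be decided whether such values stood above background. IFI6, a mitochondrial protein that limits apoptosis, and PARP9, an ADP-ribosyltransferase family member, were the 2 genes above the upper quartile (8.69), with DMSO means of 8.71 ± 0.33 and 8.97 ± 0.39.

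**Figure D1:**
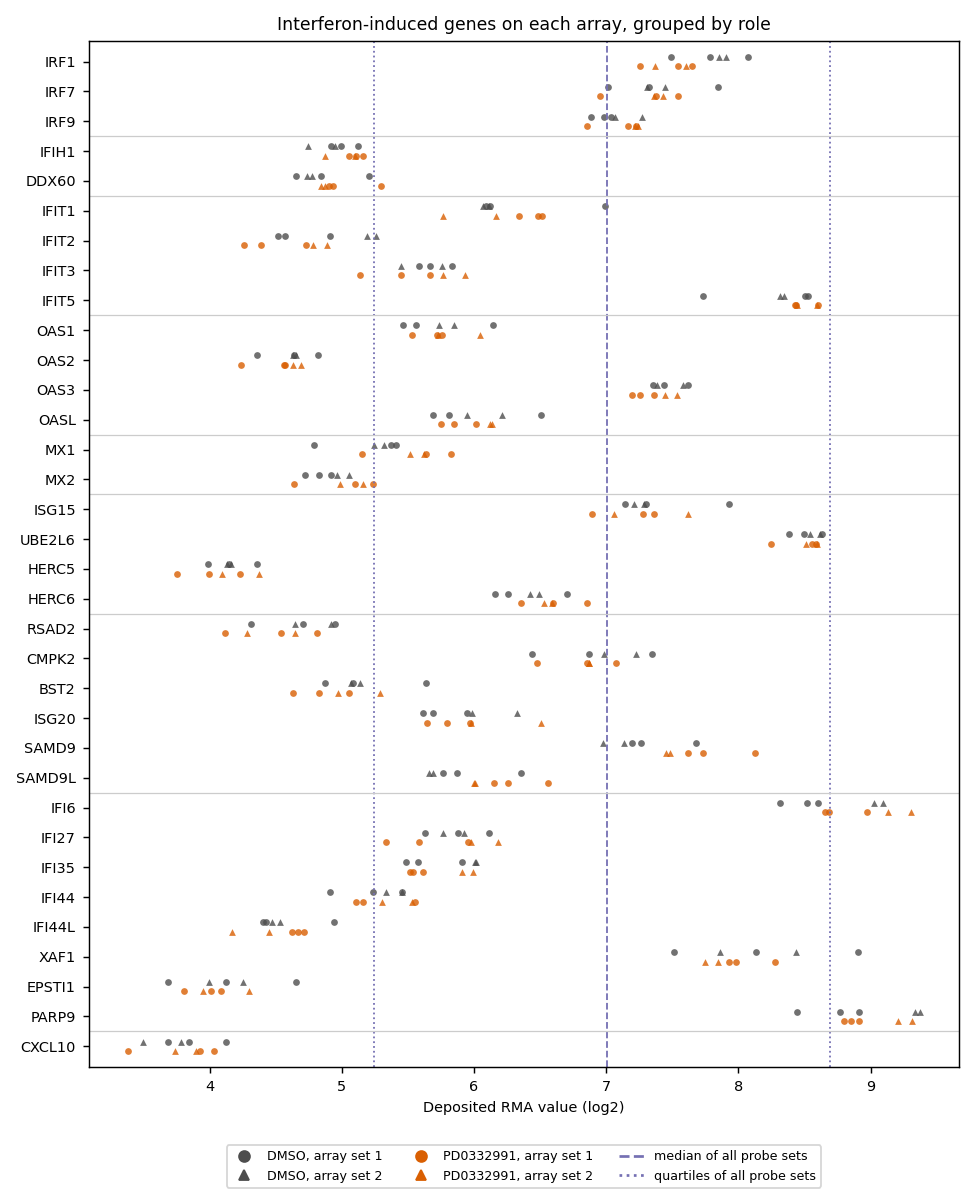
Each point is the deposited log2 value of a gene on 1 array, with DMSO above and PD0332991 below the gene's line, circles for array set 1 and triangles for array set 2; grey lines part the role groups. Of the 34 genes, 23 have means left of the dashed median of all probe sets, and the 2 treatments overlap over the 10 arrays for every gene shown.

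No interferon-induced gene passed the test for treatment. The test was limma with a term for array set, p-values were adjusted by Benjamini-Hochberg over all 21980 probe sets, and the threshold was 0.05; 0.0091% of probe sets were called higher and 0.0409% lower, 2 and 9 in number. The called ones included the cyclin gene CCNE2, with a log2 difference of -1.89, the transcription factor gene E2F2 (-1.01) and DDIT4, an inhibitor of mTORC1 (1.28). Among the 34 genes, 15 had positive and 19 negative differences, with a median of -0.03 against -0.02 over all probe sets, where 55.2% were negative. The difference had the same sign in both array sets for 20 of the 34 genes, or 58.8%, against 52.6% of all probe sets. At an unadjusted p under 0.05, limma gave 3 of the 34 genes as higher, against 1.41% of all probe sets, and 2 as lower, against 2.76%. These were SAMD9, SAMD9L and IFI6 on the positive side and IRF1 and IFIT2 on the negative side, with the smallest adjusted p at 0.802. The 95% confidence interval of the difference lay inside a 2-fold change in either direction for all 34 genes and inside a 1.5-fold change for 28. The outermost bounds were -0.73 for XAF1 and 0.72 for SAMD9 (log2). These intervals bound differences of array values. For the 11 genes under the lower quartile, which may lie near background, they do not bound the change in RNA.

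**Figure D2:**
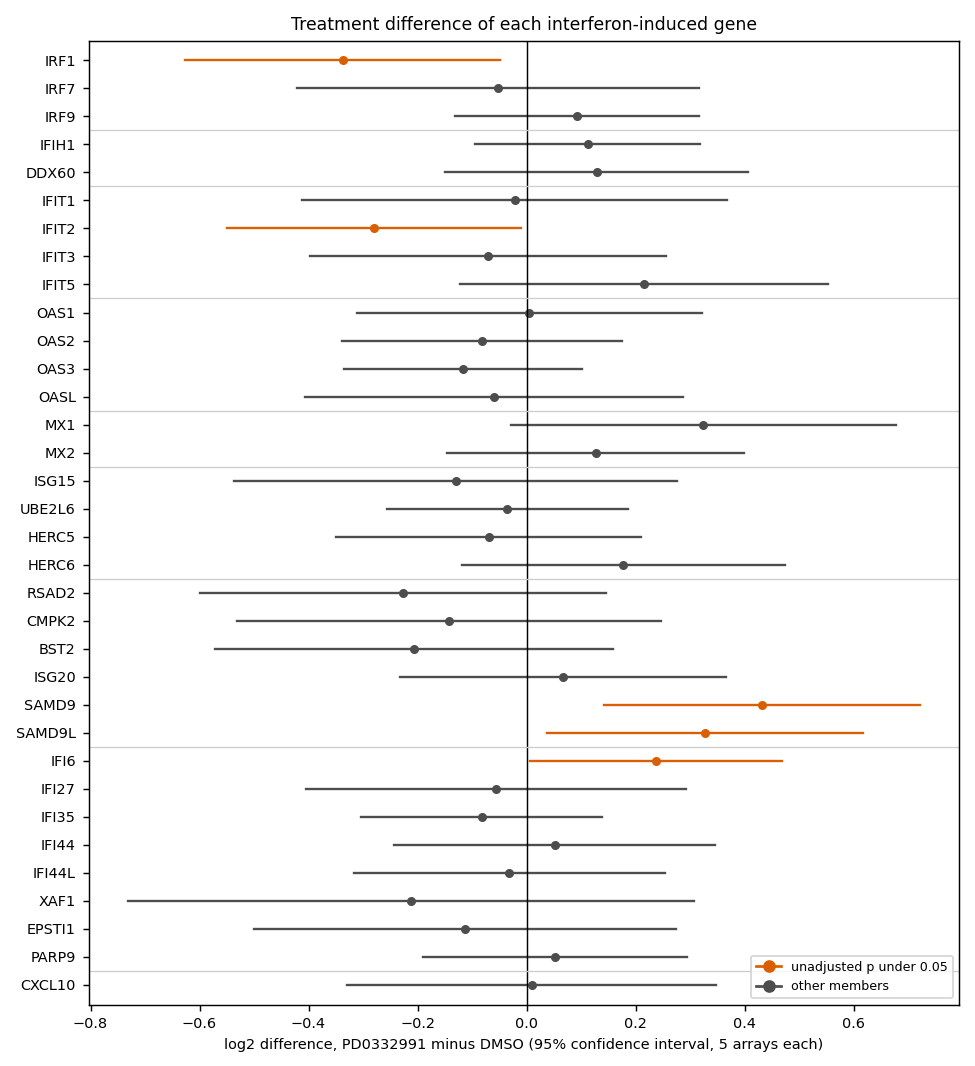
Points are log2 differences, PD0332991 minus DMSO, with 95% confidence intervals from limma (5 arrays per treatment), in the same role groups; orange marks an unadjusted p under 0.05. The 5 orange genes are IRF1, IFIT2, SAMD9, SAMD9L and IFI6, and the differences run from -0.34 to 0.43.

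Among the regulators, IRF1 had the most negative difference of the 34 genes. IRF1 encodes a transcription factor that is itself induced quickly by interferon gamma. On DMSO replicates 1 to 5 it stood at 8.07, 7.49, 7.79, 7.91 and 7.85, and on PD0332991 replicates 1 to 5 at 7.54, 7.26, 7.65, 7.37 and 7.60 (log2). The treated values were mostly lower, and the groups overlapped because DMSO replicate 2 lay below 3 treated arrays. The log2 difference was -0.34 ± 0.13 (SE, n = 5 per treatment, limma adjusted p = 1.00), with -0.30 in array set 1 and -0.39 in array set 2. IRF7, which drives the amplification of type I interferon, read 7.84, 7.32, 7.01, 7.31 and 7.45 in DMSO and 7.38, 7.54, 6.95, 7.36 and 7.43 after treatment. Its groups overlapped almost fully, and the difference was -0.05 ± 0.17, but positive without DMSO replicate 1 (0.077) or PD0332991 replicate 3 (0.046). IRF9, a DNA-binding subunit of the interferon-activated transcription factor complex, had 6.88, 6.98, 7.03, 7.06 and 7.27 in DMSO. After treatment it had 7.16, 7.23, 6.85, 7.24 and 7.22, a difference of 0.09 ± 0.10 with overlapping groups. Without PD0332991 replicate 2 it was 0.05, and without PD0332991 replicate 3 it was 0.15. The RNA sensing genes IFIH1 and DDX60, a helicase that assists RIG-I, had differences of 0.11 and 0.13.

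SAMD9 and SAMD9L had the largest and the second largest positive differences. They are neighbouring genes on chromosome 7 and encode related proteins that restrict poxviruses and slow cell growth. SAMD9 stood at 7.19, 7.27, 7.68, 7.13 and 6.98 on DMSO replicates 1 to 5 and at 7.62, 7.73, 8.12, 7.48 and 7.46 on PD0332991 replicates 1 to 5. In array set 2 both treated arrays exceeded both DMSO arrays, and in array set 1 DMSO replicate 3 alone lay above a treated array. The log2 difference was 0.43 ± 0.13 (a 1.35-fold higher mean, 95% confidence interval 0.14 to 0.72 on the log2 scale, limma adjusted p = 0.802), at 0.44 in set 1 and 0.41 in set 2. SAMD9L read 5.77, 5.87, 6.35, 5.69 and 5.66 in DMSO and 6.26, 6.15, 6.56, 6.0 and 6.01 after treatment. As for SAMD9, replicate 3 was the highest array of each treatment, and it was DMSO replicate 3 that overlapped the treated arrays. The difference was 0.33 ± 0.13 (limma adjusted p = 1.00), with 0.33 in each array set. Whether probes of these similar genes read each other's transcripts was not tested.

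IFI6 was the 1 gene of the 34 for which every treated array lay above every DMSO array of its own set, an order held by 0.814% of all probe sets, and 0 of the 34 had the reverse order, held by 1.45%. Over all 10 arrays joined, 0 of the 34 had treatments without overlap, against 0.214% of probe sets with treated arrays higher and 0.56% with treated arrays lower. It read 8.32, 8.52 and 8.60 in DMSO against 8.68, 8.97 and 8.66 after treatment in set 1, and 9.09 and 9.02 against 9.31 and 9.13 in set 2. The step between the sets was larger than that between the treatments, so the groups overlapped when the sets were joined. The log2 difference was 0.24 ± 0.10 (limma adjusted p = 1.00), at 0.29 in set 1 and 0.16 in set 2. MX1, a GTPase that blocks influenza and other viruses, read 5.38, 5.41, 4.79, 5.32 and 5.24 in DMSO and 5.64, 5.83, 5.16, 5.52 and 5.62 after treatment. PD0332991 replicate 3 was the only treated array inside the DMSO range, and DMSO replicate 3 was the lowest of all. The difference was 0.32 ± 0.16 (limma adjusted p = 1.00). Over the fits without 1 array it ran from 0.21, without DMSO replicate 3, to 0.43. MX2, its relative known for restricting HIV-1, had 0.13 ± 0.12.

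The 4 IFIT genes, which encode RNA-binding proteins that block translation of viral messages, held values of both signs. IFIT2 read 4.57, 4.52, 4.91, 5.19 and 5.26 on DMSO replicates 1 to 5 and 4.26, 4.73, 4.39, 4.78 and 4.89 after treatment. The groups overlapped in array set 1 and were apart in set 2, where both treated arrays were lower. The log2 difference was -0.28 ± 0.12 (limma adjusted p = 1.00), in a gene whose mean of 4.75 lay under the lower quartile of all probe sets. IFIT5 read 7.73, 8.53, 8.51, 8.31 and 8.34 in DMSO against 8.60, 8.43, 8.43, 8.44 and 8.59 after treatment. DMSO replicate 1 stood far below the rest, and the difference of 0.21 was 0.07 without it. Over all fits without 1 array the IFIT5 difference ran from 0.07 to 0.29. IFIT1 read 6.12, 6.09, 6.99, 6.07 and 6.12 in DMSO and 6.49, 6.34, 6.51, 6.17 and 5.77 after treatment. DMSO replicate 3 was the highest of its 10 arrays, and the difference was -0.02 ± 0.18. IFIT3, which stabilises IFIT1, had -0.07 ± 0.15, with -0.28 in set 1 and 0.24 in set 2.

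**Figure D3:**
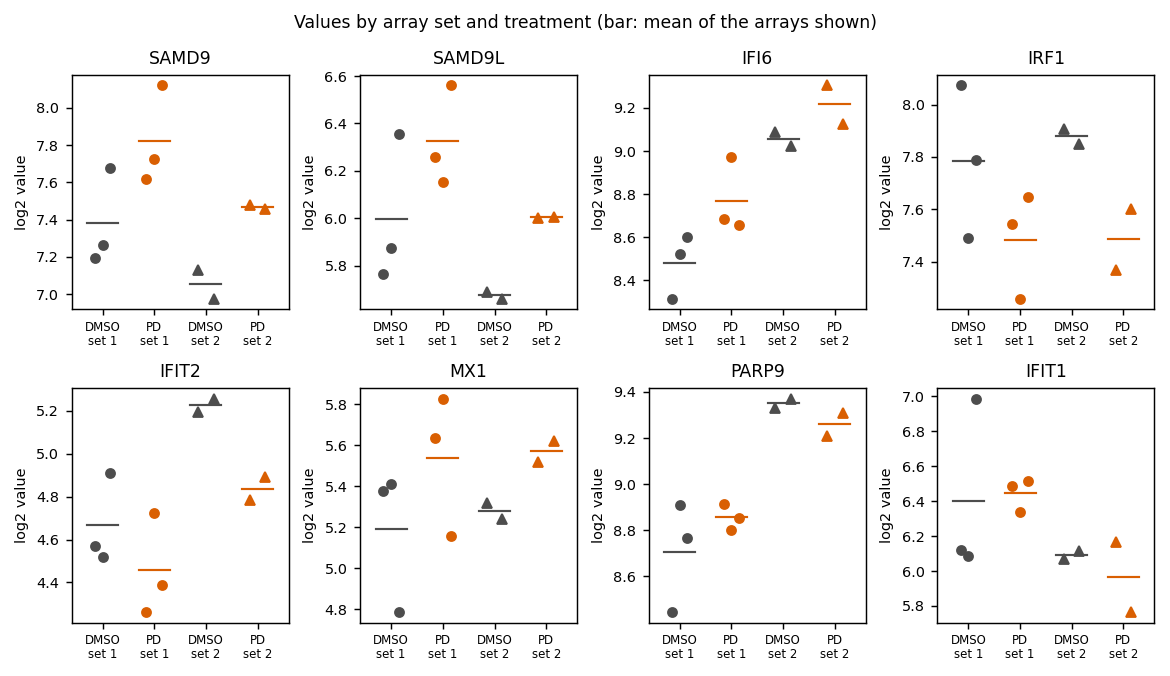
Log2 values of 8 interferon-induced genes on each array, by array set and treatment, with the mean of the arrays shown as a bar; each panel has its own axis, which does not start at 0. Treated arrays of SAMD9, SAMD9L and IFI6 have higher means than DMSO in both sets, those of IRF1 and IFIT2 lower means in both, and IFI6 and PARP9 are higher in array set 2.

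The OAS genes encode sensors of double-stranded RNA, of which OAS1, OAS2 and OAS3 make the messenger that activates RNase L. Their differences ran from -0.12 for OAS3 to 0.01 for OAS1, with OASL, an enzymatically inactive relative that enhances RIG-I signalling, at -0.06. In the ISG15 conjugation group, ISG15, a ubiquitin-like modifier, had -0.13 ± 0.18, and the E2 enzyme UBE2L6 had -0.04 ± 0.10. The ligase HERC5 had -0.07 and its neighbour on chromosome 4, HERC6, 0.18. HERC6 read 6.15, 6.26, 6.71, 6.49 and 6.43 in DMSO and 6.60, 6.36, 6.85, 6.59 and 6.53 after treatment, with overlapping groups. Leaving out DMSO replicate 1 gave a difference of 0.11, and leaving out PD0332991 replicate 3 gave 0.10. Over all fits without 1 array the HERC6 difference ran from 0.10 to 0.26.

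Among the other effectors, RSAD2 and CMPK2, a mitochondrial nucleotide kinase, are neighbours on chromosome 2 and both had negative differences. RSAD2 read 4.70, 4.95, 4.32, 4.64 and 4.92 in DMSO and 4.82, 4.54, 4.12, 4.65 and 4.28 after treatment. Its difference was -0.23 ± 0.17, and ran from -0.33 to -0.13 without 1 array (-0.13 without PD0332991 replicate 3). CMPK2 had -0.14 ± 0.18, and for both genes the groups overlapped. BST2 (tetherin), which holds budding virions at the cell surface, had -0.21 ± 0.16, and the exonuclease ISG20 had 0.07 ± 0.13. XAF1, a pro-apoptotic gene, was the most variable of the 34, with a residual SD of 0.42 against a median of 0.21 over the 34 genes. It read 8.90, 7.51, 8.13, 7.86 and 8.43 in DMSO and 7.93, 8.27, 7.98, 7.75 and 7.85 after treatment, so that all treated arrays lay inside the DMSO range (difference -0.21 ± 0.23). IFI27, IFI35, IFI44, IFI44L, EPSTI1, PARP9 and CXCL10 had differences between -0.11 and 0.05.

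Genes upstream of the interferon response also passed in neither direction. Of 44 signalling and sensing genes listed, 36 were measured, 18 with positive and 18 with negative differences, a median of -0.01, and 0 called by limma. At an unadjusted p under 0.05, limma gave 0 of the 36 as higher, against 1.41% of all probe sets, and 1 as lower, against 2.76%. That gene was CGAS, the sensor of cytosolic DNA, at 6.97 ± 0.41 in DMSO and 6.48 ± 0.56 after treatment (SD, n = 5), a difference of -0.49 with a 95% confidence interval of -0.92 to -0.05 (limma adjusted p = 1.00). The next smallest p-values were those of SOCS1, the feedback inhibitor of JAK kinases (-0.25), IFNG, which encodes interferon gamma (-0.29), and TLR3, the endosomal sensor of double-stranded RNA (0.21). The IFNG mean of 3.67 over the arrays lay under the lower quartile of all probe sets. Its DMSO replicate 1 was at 4.42, against 3.62 to 3.72 on the other DMSO arrays. The 5 measured receptor genes had differences from -0.16 for IFNGR2 to 0.31 for IFNGR1. IFNB1, the first type I interferon gene to be induced in most cells, had a mean of 3.27 over the arrays and a difference of -0.05.

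A second list held 64 further interferon-induced genes, such as antigen presentation and antiviral genes, of which 47 were measured. Here 27 had positive and 20 negative differences, with a median of 0.04, so that 42.6% were negative against 55.2% of all probe sets. The test (limma) called 0. At an unadjusted p under 0.05, limma gave 2 of the 47 as higher, against 1.41% of all probe sets, and 0 as lower, against 2.76%. The 4 genes with the smallest p are given as values. HLA-E, which encodes a ligand of natural killer cell receptors, had 0.22 and the nuclear body gene SP110 had 0.26. IFITM1, a membrane protein that blocks viral entry, had -0.25 and the tryptophanyl-tRNA synthetase gene WARS1 0.16.

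Array set calls were more numerous than treatment calls over the whole array, at 776 probe sets against 11. The counts of listed genes below are small and are given with the shares of all probe sets. IFI6 and PARP9 were higher in array set 2 than in set 1 (limma, adjusted over all probe sets). They were 2 of 34 genes (5.88%), where 2.57% of all probe sets were called higher and 0.965% lower. IFI6 averaged 8.63 ± 0.21 in set 1 (SD, n = 6) and 9.14 ± 0.12 in set 2 (SD, n = 4), a difference of 0.51 ± 0.11 (SE, limma adjusted p = 0.0323). PARP9 read 8.45, 8.91, 8.77, 9.33 and 9.37 on DMSO replicates 1 to 5 and 8.91, 8.80, 8.85, 9.21 and 9.31 after treatment. All 4 arrays of set 2 exceeded all 6 of set 1, and the difference was 0.52 ± 0.11 (SE, limma adjusted p = 0.0349). Both calls were close to the threshold. IFI6 stayed called without DMSO replicate 1 or PD0332991 replicate 2, but leaving out any one of the remaining 8 arrays ended the call (limma adjusted p = 0.0545 to 0.129). PARP9 stayed called without DMSO replicate 1 or 2, and the remaining 8 arrays each ended its call when left out (limma adjusted p = 0.0601 to 0.147).

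At an unadjusted p under 0.05, limma gave 5 of the 34 as higher in set 2, against 11.2% of all probe sets, and 2 as lower, against 7.12%. IFI6 and PARP9 were among the 5, and the other genes stood apart between the sets without passing. IFIT2 was higher in set 2 by 0.47 ± 0.12, IFI35, which encodes a partner of the STAT-interacting protein NMI, by 0.37 ± 0.10, and ISG20 by 0.42 ± 0.14 (SE, limma adjusted p = 0.0721, 0.0786 and 0.128). IFI35 read 5.91, 5.49, 5.57, 6.01 and 6.01 in DMSO and 5.54, 5.52, 5.62, 5.91 and 6.0 after treatment. IFIT2 passed as higher without PD0332991 replicate 2 (difference 0.54, limma adjusted p = 0.0476). For IFI35, DMSO replicate 1 reached the range of set 2, and without it the gene passed as higher (difference 0.43, limma adjusted p = 0.0108). ISG20 read 5.95, 5.69, 5.61, 6.32 and 5.98 in DMSO and 5.80, 5.97, 5.64, 6.51 and 5.98 after treatment, so that the highest array of set 1 (5.97) lay just under the lowest of set 2 (5.98). In all, 3 of the 34 genes (IFI6, PARP9 and ISG20) had every array of set 2 above every array of set 1, against 6.48% of all probe sets, and 0 had the reverse order, against 2.94%. SAMD9 and SAMD9L had the opposite sign, lower in set 2 by 0.34 and 0.32 on the log2 scale, which is -0.34 ± 0.13 and -0.32 ± 0.13. Over the 34 genes, 25 had higher and 9 lower values in set 2, a share of 73.5% against 59.3% of all probe sets, with medians of 0.09 and 0.05. Leaving out DMSO replicate 1 gave the 34 genes a median of 0.15, and leaving out PD0332991 replicate 3 a median of 0.05. After quantile normalization 527 of 916 called probe sets were higher in set 2, against 564 of 776 on the deposited values, and IFI6 and PARP9 were called in both.

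Outside the 34, limma called 3 of the 47 further interferon-induced genes higher in set 2 and 0 lower, and 1 of the 36 signalling genes lower and 0 higher, where the shares of all probe sets were 2.57% and 0.965%. The immunoproteasome gene PSMB8 was higher in set 2 by 1.05, the chemokine gene CCL2 by 1.39 and LGALS3BP, a secreted glycoprotein gene, by 0.61. IRF2, which encodes a factor that competes with IRF1 for binding sites, was lower, with a difference of -0.59 (limma adjusted p = 0.00493, 0.00290, 0.0182 and 0.0175). The labels do not say what parted the sets, and cultures, RNA handling and arrays cannot be told apart. Of the 4 epithelial markers measured (of 5 listed), CLDN4 was also higher in set 2, by 1.10, while EPCAM (0.26), CDH1 (-0.01) and KRT14 (0.12) were not called. Of the 10 mesenchymal markers, 8 had lower values in set 2 (median difference -0.13), among them VIM (-0.33) and CDH2 (-0.26), and none was called. The part of these markers' cells in the array set differences was not tested. The interaction term of limma, which tests whether the treatment difference differed between the sets, called 0 of the 34 genes, with 0 at an unadjusted p under 0.05 against 2.56% of all probe sets.

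**Figure D4:**
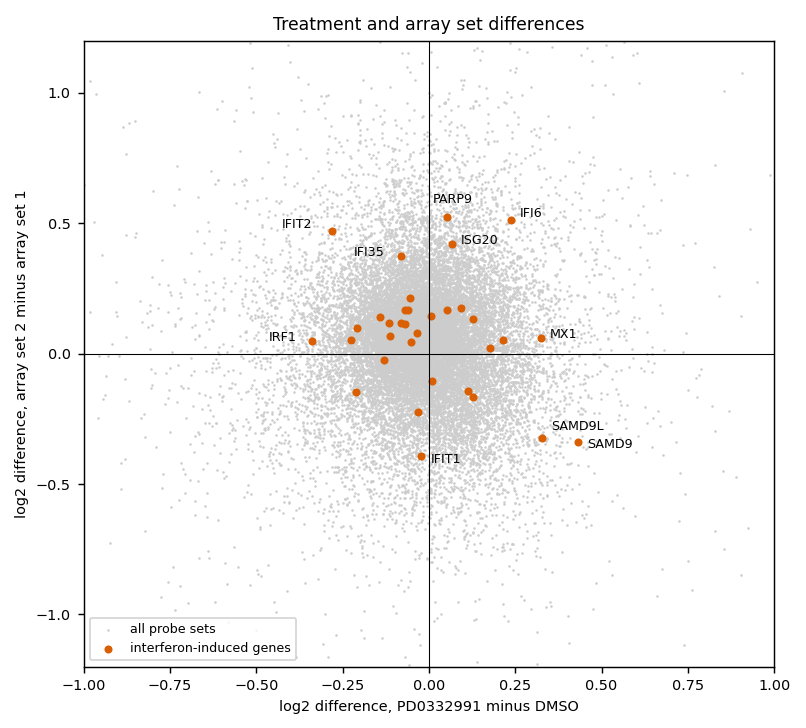
Each interferon-induced gene (orange) is placed by its log2 difference for treatment on the horizontal axis and for array set 2 minus 1 on the vertical axis, over all probe sets in grey; 113 probe sets lie outside the plotted range. The 34 genes lie within -0.34 to 0.43 on the horizontal axis, and IFI6 and PARP9 are the highest on the vertical axis.

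The start-site sequences show what these genes share apart from their values. RefSeq windows of assembly GRCh38.p14, reaching from 250 bases before to 50 bases after each annotated start, were held for 30 of the 36 genes, STAT2 among them. They were searched for the core letters of the interferon-stimulated response element, GAAANNGAAA or TTTCNNTTTC, which covers both strands, and for those of the gamma-activated site, TTCNNNGAA, which reads as the same pattern on both strands; matches of either kind could overlap. The response element letters occurred in at least 1 window of 20 of the 30 genes (66.7%), against 4.38% of 27305 genes in the table, and in 3.57% of all 35116 windows. The gamma-activated site letters occurred in 9 of the 30 (30.0%), against 9.38% of genes and 7.66% of windows. The genes were named for their induction by interferon, so such letters are a property of the class and no result of the treatment. IFIH1, IFIT5, HERC5 and IFI6 each had 3 matches to the response element letters in a window, 8 genes had 2, 8 had 1 and 10 had none.

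The bases before the start are printed for the genes with the largest positive treatment differences, SAMD9 and SAMD9L, for IFI6, called between array sets, for ISG15 as a classical target with overlapping matches, and for IRF1, which had the most negative difference. Each runs 5′ to 3′ on the strand of the gene over 250 bases up to its start site, with matches to the searched letters in capitals.
SAMD9, chr7:93117980-93118229, minus strand: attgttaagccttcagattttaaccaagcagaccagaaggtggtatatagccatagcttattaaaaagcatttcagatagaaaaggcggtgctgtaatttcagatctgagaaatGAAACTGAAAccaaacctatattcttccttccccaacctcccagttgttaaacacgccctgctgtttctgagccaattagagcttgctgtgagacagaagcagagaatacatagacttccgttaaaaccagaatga
SAMD9L, chr7:93148386-93148635, minus strand: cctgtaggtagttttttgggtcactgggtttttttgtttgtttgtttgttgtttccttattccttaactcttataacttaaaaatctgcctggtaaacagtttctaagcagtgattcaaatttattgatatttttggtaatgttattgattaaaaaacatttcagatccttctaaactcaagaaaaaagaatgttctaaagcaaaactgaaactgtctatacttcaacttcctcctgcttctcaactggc
IFI6, chr1:27672193-27672442, minus strand: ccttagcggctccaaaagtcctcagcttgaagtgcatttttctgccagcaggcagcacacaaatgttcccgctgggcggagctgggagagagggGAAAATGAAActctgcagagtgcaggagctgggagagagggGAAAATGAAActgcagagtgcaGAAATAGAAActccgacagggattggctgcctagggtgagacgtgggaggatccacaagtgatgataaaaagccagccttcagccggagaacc
ISG15, chr1:1013247-1013496, plus strand: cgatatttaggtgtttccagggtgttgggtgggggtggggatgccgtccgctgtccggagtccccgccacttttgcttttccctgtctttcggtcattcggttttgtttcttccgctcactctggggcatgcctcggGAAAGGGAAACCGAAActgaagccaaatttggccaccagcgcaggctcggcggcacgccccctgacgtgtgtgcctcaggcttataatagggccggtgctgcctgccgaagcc
IRF1, chr5:132490774-132491023, minus strand: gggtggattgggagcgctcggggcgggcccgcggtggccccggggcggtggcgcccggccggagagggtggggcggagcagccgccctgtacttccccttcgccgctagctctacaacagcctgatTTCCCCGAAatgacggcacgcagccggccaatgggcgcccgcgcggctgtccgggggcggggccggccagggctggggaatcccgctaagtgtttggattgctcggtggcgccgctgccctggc
The first base of the SAMD9 match lay at position -136 from the start, while SAMD9L, whose treatment difference had the same sign, had no match in its window. The IFI6 matches began at -156, -115 and -93. The ISG15 matches began at -113 and -107 and shared bases, and IRF1 had the gamma-activated site letters at -124 and none of the response element. PARP9, the other gene called between sets, had 1 match in 1 of its 2 windows, at -41. A match describes the letters of the window and does not show that a factor was bound in these cells.

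**Figure D5:**
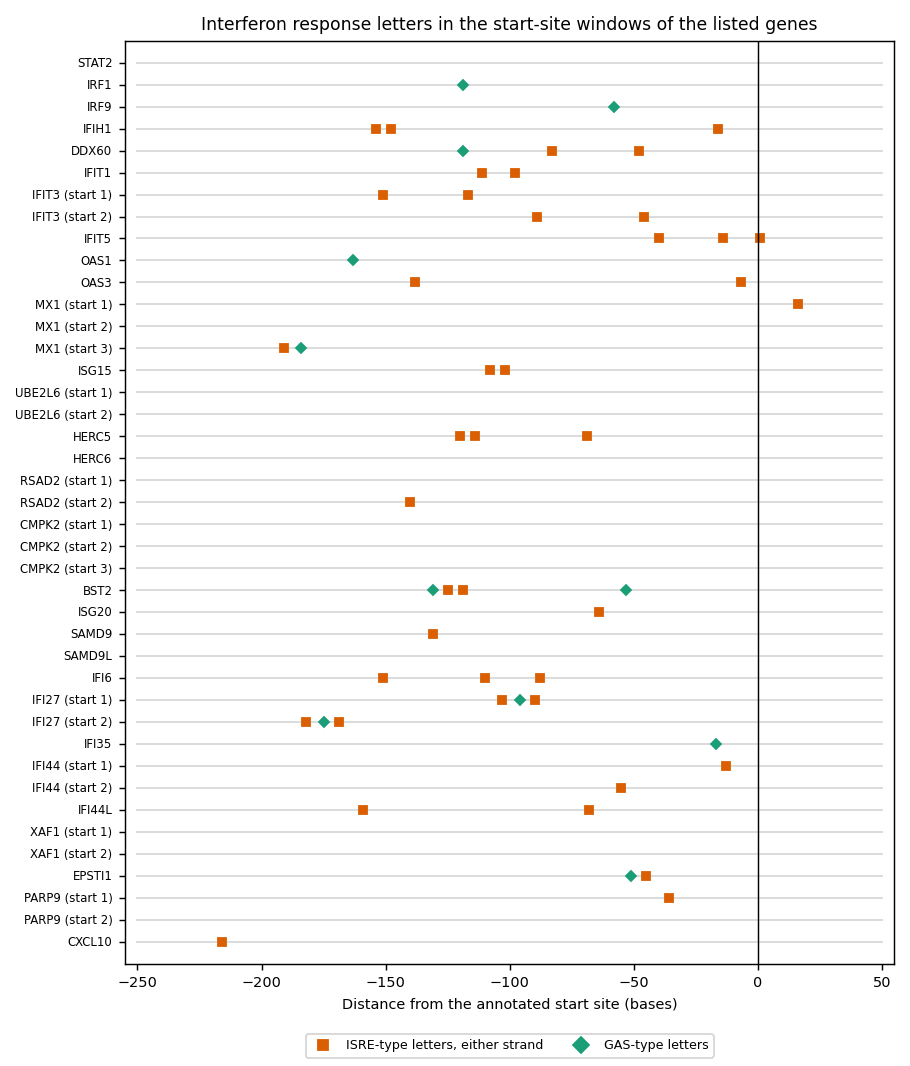
Positions of the response element letters (orange squares) and gamma-activated site letters (green diamonds) in the 41 windows of 30 listed genes, by distance in bases of the middle of each match from the annotated start; genes with several starts have a line for each. Most matches lie before the start, 20 genes have an orange square, and SAMD9L, HERC6, UBE2L6, CMPK2, XAF1 and STAT2 have no mark.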

How the data were processed

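The log2 expression values were deposited by the authors, with 1 value for each array and gene-level probe set; RMA, Partek and build hg18 are named, without versions, in the submitters' processing notes. RMA corrects background and normalizes between arrays, and it compresses differences of dim genes. Values were used as deposited. Probe sets were named through the platform annotation, with symbols checked by Entrez identifier against RefSeq (0 changed); 2408 with several symbols and 5140 without a name stayed in the tests unnamed. Treatment, array set and their interaction were fitted with limma 3.58.1 in R 4.3.3 (2-sided, Benjamini-Hochberg over 21980 probe sets, threshold 0.05). The fit was tested on simulated data. The 34 genes, the gene lists and the roles were chosen with earlier results of these data known. Values on every array are given for IRF1, IRF7 and IRF9, for the 8 other genes with the smallest treatment p and the 6 with the smallest array set p; IFIT1 and XAF1 were added after their values were seen. From each other list up to 4 genes with the smallest treatment p are named, and IFNGR1, IFNGR2, IFNB1 and the genes called between array sets were added later. The number of arrays limits the precision. Alternatives covered the model, normalization, filters, array weights, thresholds and leaving out each array. Plots used Matplotlib 3.10.9 and Python 3.11.15.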

Additional observations from a re-analysis of the deposited data

Results flagged for a closer look

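In 9 of 68 groups of 5 arrays (34 genes, 2 treatments), or 13.2%, 1 array stood apart from the other 4 by Dixon's criterion (a gap over 0.710 of the range), against 7.23% of groups over all probe sets; chance gives about 5%. On DMSO replicate 1, ISG15 was at 7.92 against 7.14 to 7.30 on the other DMSO arrays, IFI44L at 4.94 against 4.40 to 4.53, and IFIT5, in the other direction, at 7.73 against 8.31 to 8.53. On DMSO replicate 3, IFIT1 was at 6.99 against 6.07 to 6.12 and MX1 at 4.79 against 5.24 to 5.41. On PD0332991 replicate 3, DDX60 was at 5.30 against 4.84 to 4.94. IRF9 was low there at 6.85 against 7.16 to 7.24, OAS2 at 4.24 against 4.57 to 4.69 and UBE2L6 at 8.25 against 8.51 to 8.59. All 9 fell on these 3 arrays, which include the array with the narrowest and the 2 with the widest interquartile range.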

How the results depend on the processing

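None of the interferon-induced, signalling or further interferon-induced genes tested was called for treatment by limma under the 13 alternatives or the 10 fits without 1 array; leaving out the dimmest probe sets tested only 17 of the 34, without IFIT2, MX1 and RSAD2. At an unadjusted p under 0.05 these fits gave 0 to 6 of the 34 genes, against 0.696% to 7.93% of all probe sets tested. The 6 came with array weights (7.93% of all probe sets). The minimum fold of 1.2 (0.696%) and array set 1 alone (2.85%) gave 0. The median treatment difference of the 34 genes ran from -0.07 in array set 1 alone to 0.05 in set 2 alone, and from -0.06 to 0.03 without 1 array. The 34 genes split into 17 positive and 17 negative after quantile normalization or cyclic loess and into 22 and 12 with array weights. IRF7 turned positive with array weights (0.065) and in array set 2 alone (0.018), and ran from -0.15 to 0.077 without 1 array, positive without DMSO replicate 1 or PD0332991 replicate 3 (0.046); the other 10 genes named for treatment kept their sign. Over all probe sets the 11 treatment calls became 18 with 1 probe set per gene (fewer tests), 63 with array weights, 5 with a minimum fold of 1.2 and 0 in either array set alone (626 and 1270 at an unadjusted p under 0.05 in sets 1 and 2), and 2 to 23 without 1 array. With the replicate block there were 2, and at an unadjusted p under 0.05 MX1 entered and IFIT2 left the 5 genes. The smallest limma adjusted p of the 34 genes was then 0.480 (SAMD9), against 0.802 in the main fit. The numbers were not taken as pairs, on a check over all probe sets. Same-numbered deviations were all positively correlated but passed 0.1 for 3 of 5 numbers only (0.54, 0.23 and 0.20 against 0.04 and 0.07). For 1 number both arrays correlated best with each other. The deviations kept the array set differences, and the check does not show whether single genes followed the numbers. For SAMD9 and MX1 each treated array lay above the DMSO array of its number, while for IFIT2 and RSAD2 the order changed between numbers. The median array set difference of the 34 genes (0.09) was 0.043 after quantile normalization and 0.12 with array weights. The 2 genes called between array sets became 5 with array weights, 4 at a threshold of 0.1, 0 with a minimum fold of 1.2 and 0 to 3 without 1 array. The 776 probe sets became 1272 without the dimmest 33.3%, 2966 with array weights, 1551 at a threshold of 0.1, 64 with the minimum fold and 88 to 1805 without 1 array. Apart from fewer tests or arrays, the cause was not tested. The array set terms could not be fitted without the set, with the block or within a set. Dim genes may lie near background, where differences are compressed.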
